A study of Mus musculus with 6 samples.

Results

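Levels of mRNA of enzymes that break down tryptophan, phenylalanine and tyrosine were compared between control liver and liver with a conditional knockout of small Maf genes (sMaf CKO). The genes are Tdo2, Kmo, Kynu and Haao of the kynurenine route and Tat, Hpd, Hgd, Gstz1 and Fah of tyrosine breakdown. Probes were taken where the transcript accession of the array design belongs to one of these 9 listed genes. This gave at least 1 probe for 8 of the 9 genes, and none matched Haao, which is not analysed here. All 8 were among the 21059 genes and unmatched transcripts tested.

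RNA came from livers of mice aged 5 weeks on a mixed background of 129Sv/J, C57BL/6J and ICR, with 3 samples from control wild type mice and 3 from mice with the liver-specific small Maf knockout. Each sample was hybridised to 1 one-colour (Cy3) Agilent array. The labels do not state which of the small Maf genes Maff, Mafg and Mafk were deleted, what drives the deletion, or the sex of the mice. The submitters call the 3 RNA samples of a genotype independent without saying that each came from its own mouse. The p-values therefore weigh a difference against the spread between these samples, which need not be that between mice. Levels are log2 processed signals relative to the 75th percentile of the same array, and a difference is the sMaf CKO mean minus the control mean on that scale. Levels of different probes are not comparable with each other. All 8 genes were well above background on all 6 arrays.

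Most tryptophan and nearly all surplus tyrosine are oxidised in the liver. Tdo2 opens the indole ring of tryptophan, and the product passes through a formamidase to kynurenine, from which Kmo, Kynu and Haao lead towards quinolinate, a precursor of NAD. Phenylalanine is first hydroxylated to tyrosine, and Tat, Hpd, Hgd, Gstz1 and Fah then act in that order to yield fumarate and acetoacetate. Small Maf proteins have no transactivation domain of their own, and pair with each other or with CNC and Bach factors such as NRF1 and NRF2 to bind DNA.

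The 250 bases before the annotated start were available from RefSeq (GRCm38.p6) for 8 of the 9 listed genes in 9 windows, Gstz1 having 2. These are not the 8 genes measured. Haao, which had no probe, has a window, and Kynu has none and was not searched. They were searched on both strands for TGACNNNGC, a core bound by dimers of CNC and small Maf factors, for TGACTCA, the AP-1 core that also lies at the centre of Maf recognition elements, for TATAAA and for CCAAT. The first 2 motifs overlap where TGACTCA is followed by GC. TGACNNNGC was found in 0 of the 9 windows, against 10.2% of 32851 such windows of all genes. TGACTCA was found in 1 window, that of Hpd (4.46% of all windows), TATAAA in 2 (12.4%) and CCAAT in 5 (33.8%). A match is only a match of letters. Windows of Tdo2 and Tat are shown as the first steps of their routes and that of Hpd for its AP-1 core, with matches to any of the motifs on either strand in capitals. They lie at chr3:81975729-81975978 (minus strand), chr8:109990186-109990435 (plus strand) and chr5:123182724-123182973 (minus strand).
Tdo2: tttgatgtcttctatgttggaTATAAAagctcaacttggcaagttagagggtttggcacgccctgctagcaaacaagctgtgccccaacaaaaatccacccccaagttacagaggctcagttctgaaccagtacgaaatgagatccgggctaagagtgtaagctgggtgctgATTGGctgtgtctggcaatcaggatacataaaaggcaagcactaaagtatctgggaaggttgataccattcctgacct
Tat: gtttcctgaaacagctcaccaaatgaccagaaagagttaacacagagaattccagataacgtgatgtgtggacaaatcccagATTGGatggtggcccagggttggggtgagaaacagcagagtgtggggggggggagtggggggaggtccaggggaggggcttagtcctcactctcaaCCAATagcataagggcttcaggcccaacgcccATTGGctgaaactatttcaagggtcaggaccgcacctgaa
Hpd: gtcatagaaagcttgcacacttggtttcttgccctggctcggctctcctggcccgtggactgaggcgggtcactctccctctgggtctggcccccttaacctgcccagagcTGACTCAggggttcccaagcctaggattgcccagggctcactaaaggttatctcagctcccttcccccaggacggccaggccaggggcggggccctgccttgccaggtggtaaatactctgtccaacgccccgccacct
In Tdo2 the capitals mark TATAAA, which begins 229 bases before the start, and CCAAT on the opposite strand. The Tat window holds 3 CCAAT matches, and the AP-1 core of Hpd begins 139 bases before the start.

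Of the 8 genes, Tdo2 fell in sMaf CKO liver, and 6 others were lower without passing the test over all genes. Kynu stood apart with a difference near 0. In limma's test with Benjamini-Hochberg adjustment over all genes, 1 of 8 genes passed at an adjusted p under 0.05, against 0.541% of all genes tested (0.157% passed as lower). Of the 114 genes that passed in all, 33 were lower, compared with 4 of 22 under quantile normalization and 3 of 31 under scaling on hepatocyte markers. At an unadjusted p under 0.05, 6 of 8 genes were lower, where 8.1% of all genes were lower, 8.71% higher and 16.8% different in either direction. The count of lower genes was 1 under spike-in scaling, and 3 without control replicate 1, without control replicate 3 or without sMaf CKO replicate 1. Under scaling on hepatocyte markers, 2 of the 8 genes had an unadjusted p under 0.05, and 1 of these was lower. The other was Kynu, which was higher there (0.59, SE 0.21, limma adjusted p = 0.135). For 5 of the 8 genes every sMaf CKO array was below every control array, against 11.6% of all genes (22.9% were without overlap in either direction). Negative differences were found for 7 of the 8 genes and for 54.7% of all genes, and the median difference was -0.90 for the 8 genes and -0.05 for all genes.

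**Figure D1:**
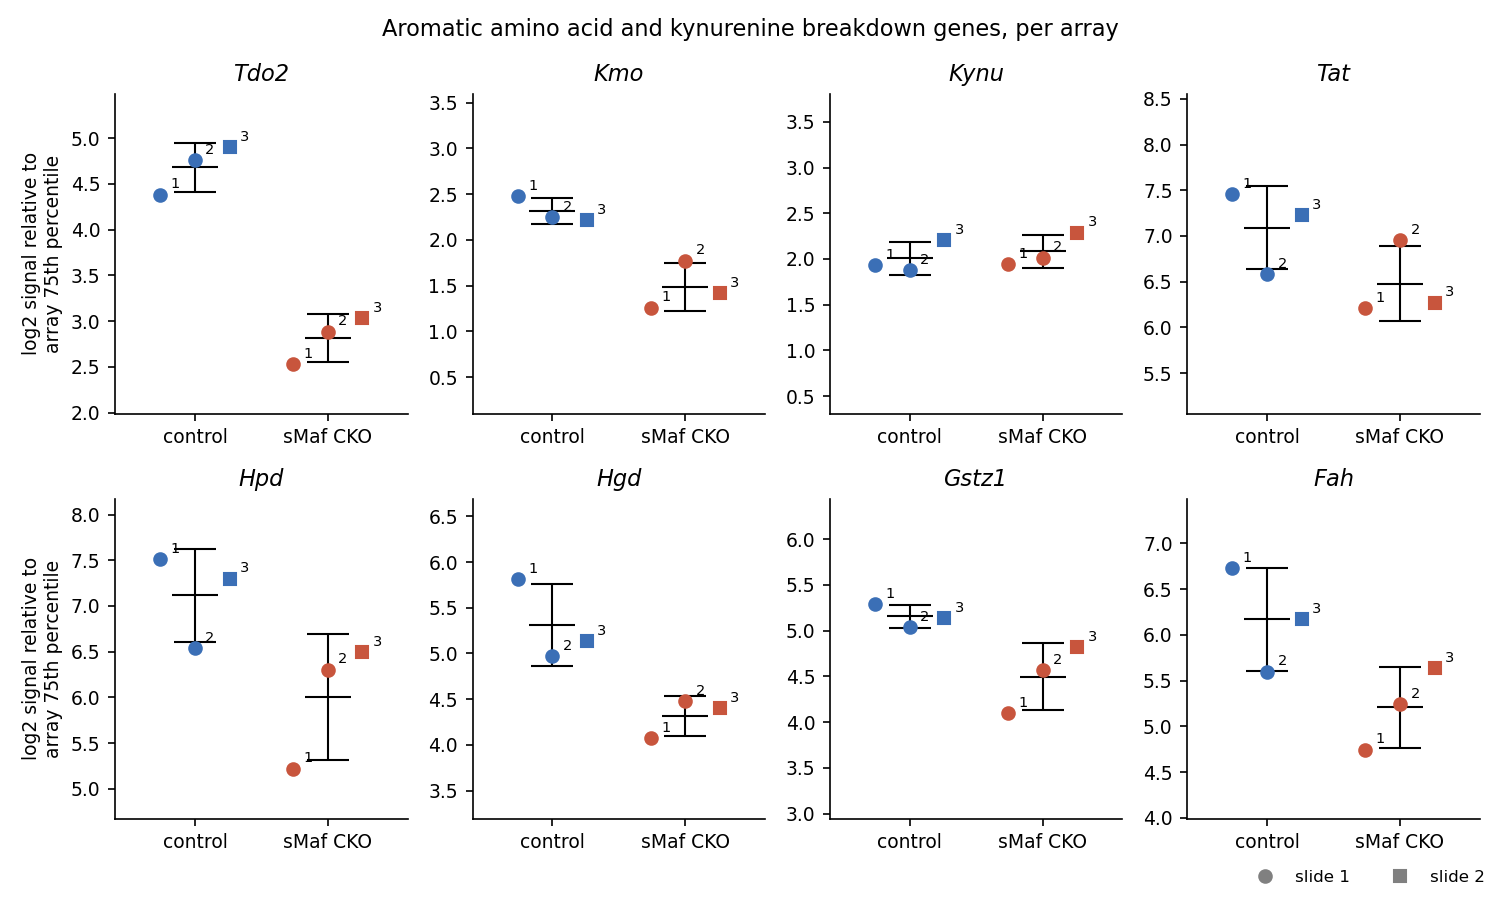
Level of each of the 8 genes in log2 units, scaled by the array's 75th percentile (vertical axis, each panel spanning the same range) for control and sMaf CKO liver, with 1 point per array numbered by replicate, circles for slide 1 and squares for slide 2, and bars for the mean ± SD (n = 3). Tdo2 levels of sMaf CKO arrays (2.53 to 3.03) lie below all control levels (4.38 to 4.90), and those of Kynu overlap.

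Tdo2, the haem-dependent dioxygenase that starts the kynurenine route in hepatocytes, had levels of 4.38, 4.76 and 4.90 on control arrays 1, 2 and 3. On sMaf CKO arrays 1, 2 and 3 the levels were 2.53, 2.89 and 3.03. The genotypes were well separated, and the spread within each was small. The mean fell from 4.68 ± 0.27 to 2.82 ± 0.26 (SD, n = 3 each), a difference of -1.86 (SE 0.25) or 3.64-fold (limma adjusted p = 0.0382). As a share of the mean control level, 22.5%, 28.8% and 32.0% were left on the 3 sMaf CKO arrays. Among the 33 genes and transcripts that fell by this test, the fall of Tdo2 ranked 20 by size. A second probe for Tdo2 also separated the genotypes, with levels from 4.28 to 4.78 on control arrays and from 2.53 to 3.12 on sMaf CKO arrays (difference -1.72, SE 0.25).

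The size of the Tdo2 difference varied little with the arrays used, whereas its call was lost in most fits that left out an array. It was -1.86 within slide 1 (2 arrays against 2, limma adjusted p = 0.0493) and -1.87 within slide 2 (1 against 1). Leaving out 1 array at a time gave differences from -2.01 to -1.72. The limma adjusted p was then 0.128, 0.0543 and 0.119 without control replicate 1, 2 or 3, and 0.134, 0.0996 and 0.0240 without sMaf CKO replicate 1, 2 or 3. The call was also lost under quantile normalization (-1.69, adjusted p = 0.0596), under scaling on spike-in probes (-1.56, adjusted p = 0.300), with no filter on dim probes (adjusted p = 0.152) and under scaling on hepatocyte markers (-1.36, adjusted p = 0.0673).

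Kmo, the mitochondrial flavoprotein that hydroxylates kynurenine, had levels of 2.48, 2.25 and 2.22 on the control arrays. On the sMaf CKO arrays it stood at 1.26, 1.77 and 1.42. All sMaf CKO values were below all control values. The difference was -0.83 (SE 0.23) or 1.78-fold, did not pass over all genes (limma adjusted p = 0.152), and was -0.85 within slide 1 and -0.80 within slide 2.

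Kynu, which cleaves kynurenine and 3-hydroxykynurenine, gave 1.93, 1.88 and 2.21 in control liver and 1.94, 2.01 and 2.29 in sMaf CKO liver. These values overlapped almost fully. The difference was 0.08 (SE 0.22, limma adjusted p = 0.889), with a 95% interval from -0.43 to 0.58, so that a fall of the size seen for Tdo2 lies outside it. Its sign turned without sMaf CKO replicate 3 (-0.026).

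Within each array, the log2 ratio of Tdo2 to Kynu was 2.45, 2.88 and 2.69 in control and 0.58, 0.87 and 0.75 in sMaf CKO liver. Ratios within an array do not depend on its scaling. Such ratios of Tdo2 to each of the 7 other genes were compared by exact two-sided permutation tests over the 6 arrays. The smallest possible p of this test is 0.1, so that no outcome could pass 0.05. Each shift equals the difference of Tdo2 minus that of the other gene. Tdo2 had the lowest difference of the 8 genes, so all 7 shifts were bound to be negative, and their sign is no further evidence. The ratio shifted by -1.94 against Kynu, -1.25 against Tat, -1.20 against Gstz1 and -1.03 against Kmo, with no overlap between genotypes for these 4 genes (exact p = 0.1, adjusted over the 7 ratios 0.175). Against Fah, Hgd and Hpd it shifted by -0.90, -0.88 and -0.76, with overlapping arrays (exact p = 0.2, adjusted 0.2).

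In the tyrosine route, Tat transfers the amino group of tyrosine and is a classical glucocorticoid-inducible enzyme of the liver. Its levels were 7.46, 6.58 and 7.23 in control and 6.21, 6.95 and 6.27 in sMaf CKO liver. Replicate 2 of sMaf CKO lay above replicate 2 of the control, so the groups overlapped. The difference was -0.61 (SE 0.32, limma adjusted p = 0.382), with an interval from -1.35 to 0.13 that includes 0, and was -0.44 within slide 1 and -0.96 within slide 2.

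Hpd oxidises the keto acid made by Tat to homogentisate. Its control levels were 7.51, 6.54 and 7.30, and those in sMaf CKO liver were 5.22, 6.31 and 6.49. The groups did not overlap, although control replicate 2 and sMaf CKO replicate 3 were only a little apart. The difference was -1.11 (SE 0.41, limma adjusted p = 0.239) or 2.16-fold, and -0.72 without sMaf CKO replicate 1, the lowest array.

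Hgd, which opens the ring of homogentisate and is deficient in alkaptonuria, had levels of 5.82, 4.97 and 5.13 in control liver. In sMaf CKO liver they were 4.07, 4.48 and 4.40, all below the controls. The difference was -0.99 (SE 0.28) or 1.98-fold (limma adjusted p = 0.162), with -1.12 within slide 1 and -0.73 within slide 2.

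Gstz1, the glutathione-dependent isomerase of maleylacetoacetate, was measured at 5.29, 5.04 and 5.14 in control and 4.10, 4.57 and 4.82 in sMaf CKO liver. The sMaf CKO values were lower on every array and more spread (SD 0.37 against 0.13). The difference was -0.66 (SE 0.25, limma adjusted p = 0.249), from -0.83 within slide 1 to -0.32 within slide 2.

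Fah, which catalyses the last step and is deficient in hereditary tyrosinaemia, had levels of 6.73, 5.60 and 6.18 in control liver and 4.75, 5.24 and 5.63 in sMaf CKO liver. Control replicate 2 and sMaf CKO replicate 3 overlapped. The difference was -0.96 (SE 0.36) or 1.95-fold (limma adjusted p = 0.244), with -1.17 within slide 1 and -0.54 within slide 2.

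**Figure D2:**
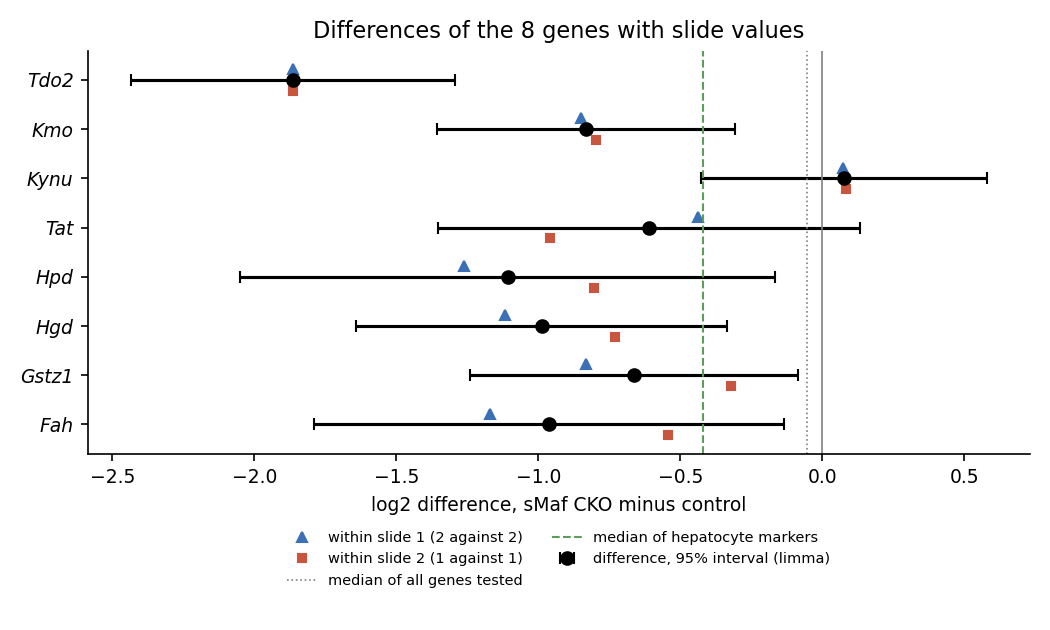
Log2 difference of each gene, sMaf CKO minus control (horizontal axis), with black points and bars for the difference and its 95% interval from limma, triangles for slide 1, squares for slide 2, and vertical lines for 0 and for the medians of all genes tested and of hepatocyte markers. Tdo2 lies near -1.86 on both slides, the other tyrosine and kynurenine genes but Kynu between -1.11 and -0.61, and Kynu at 0.08.

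The arrays differed in level in ways several of the genes shared. Control replicate 1 was the highest of the 6 arrays for 6 genes (Kmo, Tat, Hpd, Hgd, Gstz1 and Fah), and control replicate 2 was the lowest control array for 6. Tdo2 differed from that pattern, with control replicate 1 as its lowest control array. The lowest value of all 6 arrays was on sMaf CKO replicate 1 for 7 genes, all but Kynu. That array also had the highest 75th percentile of processed signal, 960.5, against 483.4 to 668.0 on the other 5 arrays. Before scaling, the median processed signal of the 8 genes was 27283, 19597 and 17002 for control replicates 1, 2 and 3, compared with 16311, 15378 and 11844 for the sMaf CKO replicates. On this scale too, the median was lower on each sMaf CKO array than on any control array, although 16311 and 17002 lie close together. Among the sMaf CKO arrays, replicate 1 was the highest rather than the lowest. Single genes were not compared on this scale. The part of this brightness in the results was not tested. Without sMaf CKO replicate 1 the count of genes lower at an unadjusted p under 0.05 was 3 instead of 6, and all 7 negative differences kept their sign. Under quantile normalization they also kept it, with a median of -0.66 for the 8 genes and smaller values for Hpd (-0.74), Fah (-0.61), Gstz1 (-0.40) and Tat (-0.20).

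The library labels were checked on the small Maf genes and the tissue on its markers. Mafg was at 1.87 to 2.23 in control and -4.36 to -0.76 in sMaf CKO liver (difference -4.69, SE 0.79, limma adjusted p = 0.0533), whereas Maff (0.15, SE 0.51) and Mafk (0.21, SE 0.29) had intervals that include 0. It is not known whether these probes lie in a deleted region. All 11 tested markers of hepatocytes, Alb among them, were well above background in both genotypes and had negative differences, 3 of them at an unadjusted p under 0.05, with a median of -0.42 (-0.59 within slide 1 and -0.08 within slide 2). Their mean deviation from the control means ranged from -0.14 to 0.11 on control arrays and from -0.82 to -0.15 on sMaf CKO arrays. All 12 tested macrophage markers had positive differences (median 0.79), with mean deviations from -0.57 to 0.36 in control and from 0.54 to 1.48 in sMaf CKO liver, and no tested marker of either list was below background on all arrays. For bile duct cells 6 of 7 markers were positive (median 0.63), for stellate cells 9 of 9 (0.43), for T, B and NK cells 7 of 10 (0.18), for erythroid cells 3 of 6 (0.19), for neutrophils 3 of 6 (0.14) and for endothelial cells 3 of 8 (-0.16). In bulk liver, fewer hepatocytes and less RNA per hepatocyte cannot be told apart, and the part of the marker shifts in the results was not tested. Measured against the mean of the hepatocyte markers on each array, the median of the 8 genes was -0.39, against 0.45 for all genes. On that scale Tdo2 was at -1.36, Hpd at -0.60, Hgd at -0.48, Fah at -0.45, Kmo at -0.32, Gstz1 at -0.15, Tat at -0.10 and Kynu at 0.59.

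**Figure D3:**
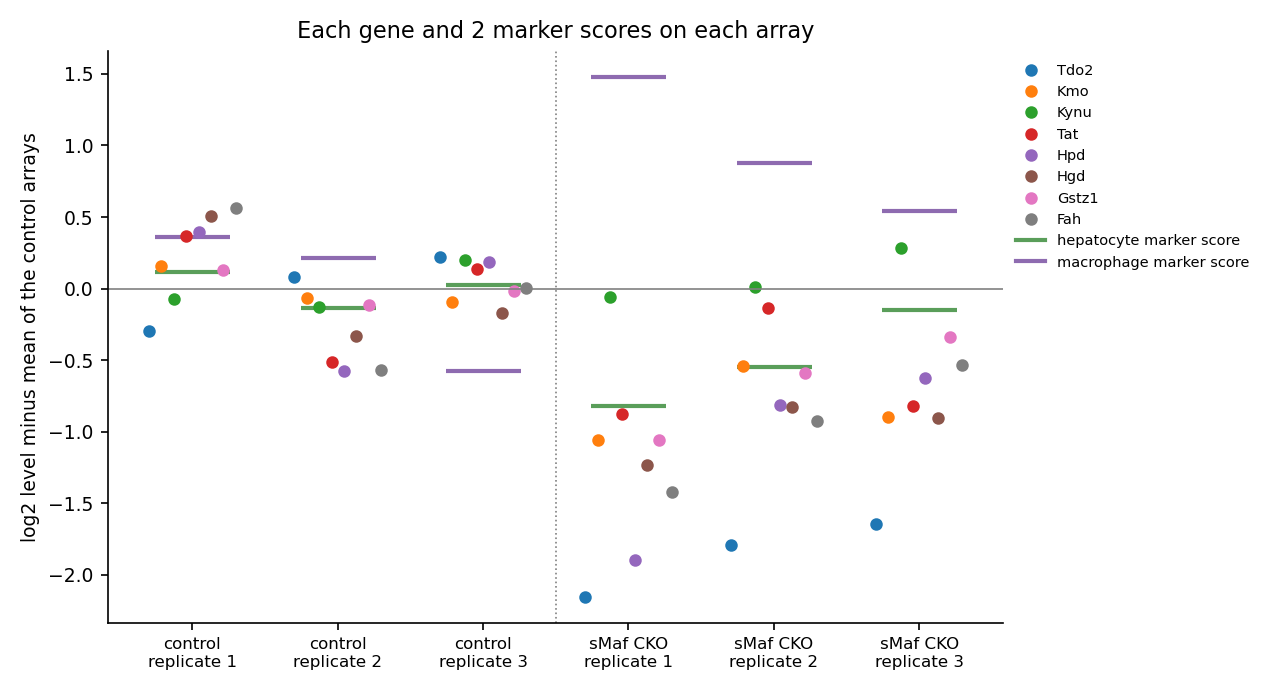
Log2 level of each gene minus its mean over the control arrays (vertical axis) on each of the 6 arrays, with 1 coloured point per gene and horizontal bars for the mean deviation of hepatocyte and macrophage markers. On sMaf CKO replicate 1 the hepatocyte bar stands at -0.82 and the macrophage bar at 1.48, and 7 of the 8 genes are at their lowest there.

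Other genes of tryptophan, phenylalanine and tyrosine metabolism were mostly lower as well, and none of them passed the test over all genes. Of 11 tested tryptophan genes outside the listed ones, 9 were negative, with a median of -0.91. In limma 0 passed (7 at an unadjusted p under 0.05, of which 6 were lower, against 8.1% of all genes lower). The gene at the median had a dim probe, well above background on only 2 control arrays and 1 sMaf CKO array. Some others of the list were also dim on some arrays. Afmid, the formamidase that acts after Tdo2, had levels from 2.77 to 3.58 in control and from 0.88 to 2.29 in sMaf CKO liver (difference -1.54, SE 0.40, adjusted p = 0.144). Ddc, the decarboxylase of aromatic amino acids, went the other way, with 0.77 to 1.78 in control and 2.06 to 2.19 in sMaf CKO liver (0.94, SE 0.29, adjusted p = 0.186).

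Of 13 genes of phenylalanine and tyrosine breakdown and of the tetrahydrobiopterin cofactor, 12 were negative (median -0.56), and 0 passed in limma. At an unadjusted p under 0.05 there were 7, all lower, against 8.1% of all genes lower. Smallest in p were Qdpr, which regenerates the cofactor (-1.08, SE 0.39, adjusted p = 0.231), and Pts, an enzyme of its synthesis (-0.53, SE 0.19, adjusted p = 0.237). For Pts the arrays lay close together within each genotype, from 2.48 to 2.62 in control and from 1.97 to 2.05 in sMaf CKO liver. Genes of NAD synthesis were negative in 8 of 8 cases with a median of -0.48, and 0 passed. At an unadjusted p under 0.05 there was 1, near the share of all genes. Among them Nampt, which makes nicotinamide mononucleotide, differed by -0.89 (SE 0.35, adjusted p = 0.260) and Nmrk1, a nicotinamide riboside kinase, by -0.86 (SE 0.37, adjusted p = 0.298).

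Transporters of aromatic amino acids differed in sign from the enzymes, with 5 of 6 positive and a median of 0.35. None passed in limma (0 of 6). At an unadjusted p under 0.05 there were 3, of which 2 were higher and 1 lower, against 16.8% of all genes. Slc7a8, a light chain of the heterodimeric amino acid exchangers, had levels of 0.04, 0.31 and -0.68 in control and 1.17, 1.23 and 0.70 in sMaf CKO liver (difference 1.14, SE 0.31, adjusted p = 0.152). Slc3a2, the heavy chain of these exchangers, was at 3.78, 3.48 and 3.43 in control and 4.41, 4.26 and 4.09 in sMaf CKO liver (0.69, SE 0.22, adjusted p = 0.190). Neither gene had overlapping arrays, as was so for 22.9% of all genes.

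Because Tat and Tdo2 are classical glucocorticoid-inducible genes and kynurenine is a ligand of the aryl hydrocarbon receptor, genes of both systems were read as well. Of 8 glucocorticoid-linked genes, 6 were negative (median -0.45), and 0 passed in limma (2 at an unadjusted p under 0.05). Hsd11b1, which regenerates active glucocorticoid in the liver, had a difference of -1.15 (SE 0.32, adjusted p = 0.158) and Sgk1, a glucocorticoid-inducible kinase, one of 0.77 (SE 0.24, adjusted p = 0.190). Of 8 genes of the aryl hydrocarbon receptor and its targets, 6 were positive (median 0.27), and 0 passed (1 at an unadjusted p under 0.05). For both lists the unadjusted counts stand beside 16.8% of all genes in either direction. Nqo1, which is also a target of NRF2, was at -1.66 (SE 0.40, adjusted p = 0.120), and Cyp1b1, a dim probe well above background on only 2 arrays of each genotype, at 0.90 (SE 0.41, adjusted p = 0.323).

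Enzymes of other amino acids had medians in the same range as the 8 genes. The median was -0.82 for 9 genes of the urea cycle, arginine and glutamine, -0.75 for 10 genes of histidine, serine, proline and alanine breakdown, and -0.58 for 10 genes of the methionine cycle and transsulfuration. No gene of these 3 lists passed in limma (4, 1 and 4 genes were lower at an unadjusted p under 0.05, against 8.1% of all genes). In the first list the smallest p-values were those of Arg1, which splits arginine (-1.30, SE 0.22, adjusted p = 0.0555), and the ornithine aminotransferase Oat (-1.73, SE 0.47, adjusted p = 0.154). In the second they were those of Prodh2 (-0.81, SE 0.31, adjusted p = 0.258) and the urocanate hydratase Uroc1 (-0.75, SE 0.34, adjusted p = 0.320). In the third they belonged to Ahcy, which hydrolyses S-adenosylhomocysteine (-1.68, SE 0.30, adjusted p = 0.0612), and the methionine adenosyltransferase Mat1a (-1.16, SE 0.28, adjusted p = 0.123). No difference between these lists and the 8 genes was tested.

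**Figure D4:**
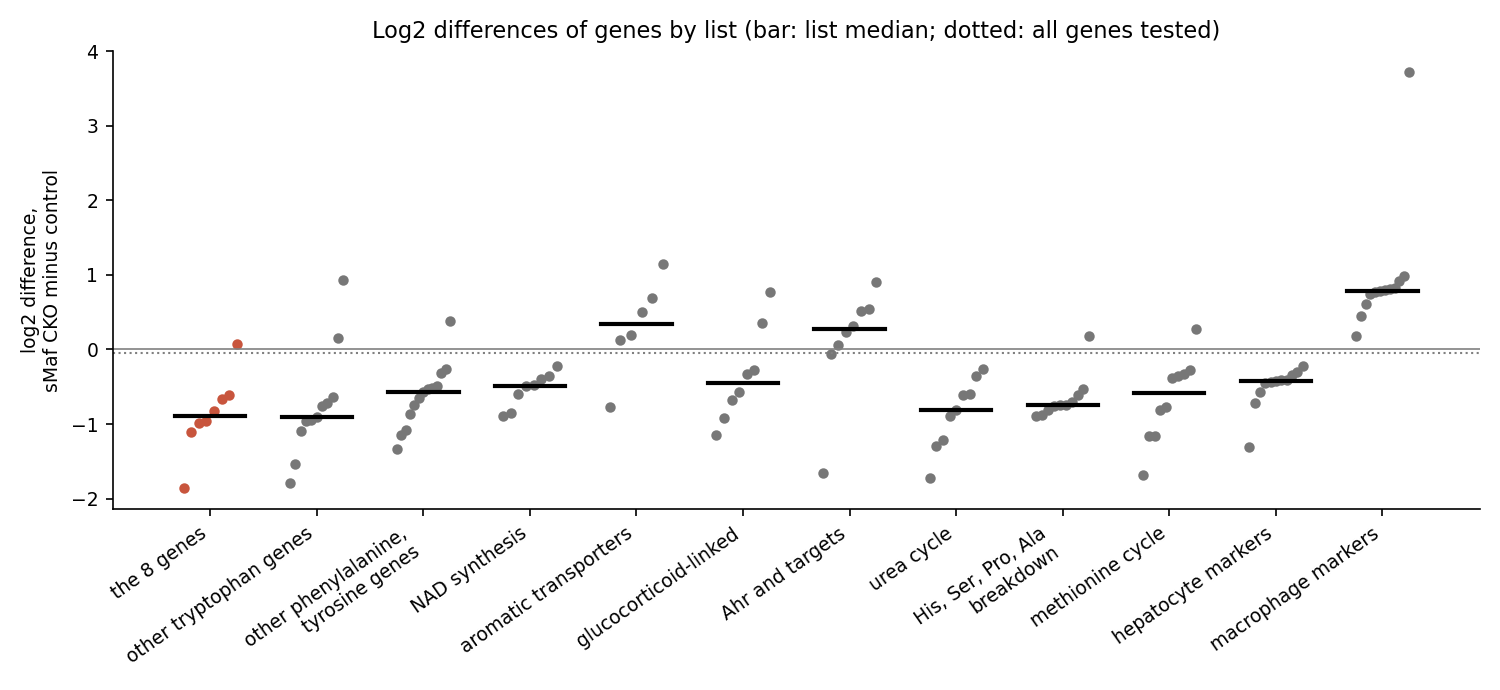
Log2 difference, sMaf CKO minus control (vertical axis), of every tested gene of each list, with 1 point per gene ordered by value, a bar for the list median and a dotted line for the median of all genes tested (-0.05). The median of the 8 genes (red, -0.90) lies in the range of the medians of the other amino acid and NAD lists (-0.91 to -0.48). Medians of transporters of aromatic amino acids (0.35) and macrophage markers (0.79) are above 0.

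Likeness of pattern was measured as the root mean square distance between the profiles of 2 genes over the 6 arrays, each centred on its own mean, over 14181 genes with a symbol. The genotype difference is part of this distance. Genes near Tdo2 or Tat were therefore bound to have differences near theirs, which are no further evidence. The 5 genes nearest to Tdo2 were Lrit2 (0.18), Abca8a (0.19), Lrp2bp (0.20), Gas1 (0.24) and Atp6v0d2 (0.27 on the log2 scale). Of these, Gas1 fell (-1.72, SE 0.22, limma adjusted p = 0.0382), and the other 4 had differences from -1.82 to -1.36 that did not pass (adjusted p from 0.0523 to 0.0769). Nearest to Tat were Tgfbrap1 (0.10), Col17a1 (0.12), Cabcoco1 (0.13), 9430038I01Rik (0.13) and Adssl1 (0.14), with differences from -0.72 to -0.43 (adjusted p from 0.298 to 0.493). Low in signal were Lrit2 (-5.93 to -3.39) and Lrp2bp (-6.09 to -3.61) near Tdo2, and Col17a1 (-5.73 to -4.33) near Tat. Among the 8 genes themselves the distance was 0.212 for Hpd and Fah, 0.213 for Hgd and Fah and 0.214 for Kmo and Hgd, values too close to rank.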

How the data were processed

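3 control and 3 sMaf CKO liver RNA samples were measured on 6 arrays, grouped by the labels. Agilent Feature Extraction 10.7.3.1 (protocol GE1_107_Sep09) produced the spot intensities, per the file headers, including background subtraction and detrending within each array. The deposited processed intensity carries no step between arrays in these headers, which name build mm9 for the design. The authors' deposited value table holds log2 values, whose making is not described in the labels. Its columns match, over 27806 probes, log2 processed intensity scaled by the 75th percentile of each array and centred on each probe's median (median absolute difference at most 0.00886). Scale, centring and direction are thus settled; column medians were 0.05, -0.02 and 0.08 for control and -0.10, -0.11 and 0.09 for sMaf CKO arrays 1, 2 and 3.

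Control spots and outlier spots were left out, and spots of a probe averaged. A probe was kept if at least 3 of 6 arrays had it well above background (27859 of 41174, 0 saturated). Probes were named through accessions in the RefSeq gene table (26690 with 1 symbol). The kept probe with the highest mean stood for a gene. The genotypes were tested in limma 3.58.1 under R 4.3.3 (genotype alone, Benjamini-Hochberg over 21059 genes, threshold 0.05), tested on simulated data. Slide 1 held replicates 1 and 2 of each genotype and slide 2 the third. From 58.0% to 73.6% of probes per array were well above background. The number of arrays limits the precision.

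Genes and lists were chosen with earlier results of these data known. The text names the 9 listed genes, the small Maf genes, list members that passed or else the 2 with the smallest p, and the 5 genes nearest to Tdo2 and to Tat. Alb is named as the defining hepatocyte marker, outside that rule and after seeing its values. Scaling on hepatocyte markers was added after seeing the data.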

Additional observations from a re-analysis of the deposited data

How the results depend on the processing

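All 7 negative differences of the 8 genes kept their sign under every alternative run, and Kynu turned sign only without sMaf CKO replicate 3 (leave-one-out range -0.026 to 0.18). Over leave-one-out fits the differences ranged from -2.01 to -1.72 for Tdo2, the median of the 8 genes from -1.01 to -0.71, the count of the 8 genes changed from 0 to 1, the count of all genes changed from 3 to 294 and the count changed in the other lists from 0 to 1. Only without sMaf CKO replicate 3 did Tdo2 keep its call among these fits.

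Tdo2 also lost its call at an adjusted p under 0.01 (-1.86), with no filter on dim probes (-1.86), under quantile normalization (-1.69), spike-in scaling (-1.56) and hepatocyte marker scaling (-1.36), so 0 of the 8 genes changed there. The median of the 8 genes was -0.60 under spike-in scaling and -0.39 under hepatocyte marker scaling, which raised the median of all genes to 0.25 and 0.45. Gstz1 was at -0.32 within slide 2. The count of all genes changed, 114, became 3 at an adjusted p under 0.01, 513 with array weights, 308 with trend and robust eBayes, 31 with hepatocyte marker scaling, 252 with median scaling, 1 with no filter (which adds dim probes to the genes tested), 74 with normexp, 267 with probes well above background on all 6 arrays, 22 with quantile normalization, 340 with slide as a block, 12 with spike-in scaling and 196 within slide 1. The count changed in the other lists, 0, became 3 with array weights and with probes above background on all arrays, 2 with trend and robust eBayes, normexp and slide as a block, and 1 with median scaling and within slide 1. The cause of these shifts was not tested.

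With the replicate number as a block, 291 genes changed in all and 1 in the other lists, and Tdo2 passed (-1.86, adjusted p = 0.0251). The labels give same-numbered samples nothing in common but the number, although their arrays share a slide, as do replicates 1 and 2 of both genotypes. Deviations from the group means correlated at 0.06, 0.17 and 0.42 for replicates 1, 2 and 3, control replicate 2 correlated best with sMaf CKO replicate 1 (0.29), and pairs across slides correlated at -0.37 to -0.07.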
